A study of Mus musculus with 12 samples.

Results

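Rasgrf1, Ret, Gpld1, Pcyt1b, Grhl3, Trpm6, Casz1 and Arsb are 8 mouse genes best known from tissues other than CD8 T cells. They were picked by name from the 55335 genes of the deposited count table, because earlier results of the same libraries showed large rises in cells carrying a Batf3 vector. The choice used both comparisons of Batf3 with control cells, so for these 8 genes those comparisons are a description without a test. All 8 were among the 15702 genes that passed the filter on low counts.

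RNA was sequenced from splenic CD8 T cells of OT-I mice, a C57BL/6 line with a transgenic T cell receptor; the age of the animals is not given in the sources used here. Every culture held cells sorted for successful transduction with a retroviral vector, and was kept for 6 h. The 4 groups were Batf3 stimulated, control stimulated, Batf3 non-stimulated and control non-stimulated cells, where control cells carried an empty vector. Stimulated cells received plate-bound antibody to CD3e and antibody to CD28, each at 1 µg/ml, and non-stimulated cells received IL-15 at 100 ng/ml, which the labels name for the non-stimulated cultures alone. Each group had 3 libraries, which the labels call technical replicates, so every SD, SE and p-value below measures technical spread and none covers the spread between mice or transductions.

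BATF3, a transcription factor of the basic leucine zipper class, pairs with JUN proteins at AP-1 sites and with IRF4 or IRF8 at composite sites. It is best known for the development of cross-presenting dendritic cells, and in CD8 T cells for the survival of memory cells. The 8 genes belong to no common pathway. Their products act in growth factor and RAS signalling (Rasgrf1, Ret), at membrane lipids (Gpld1, Pcyt1b), in transcription (Grhl3, Casz1), in magnesium uptake (Trpm6) and in the lysosome (Arsb).

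Sequences just before the start site are shown for 3 genes that stand for the different patterns described below. Rasgrf1 had the widest gap between Batf3 and control cells in non-stimulated cultures, Gpld1 had the deepest loss under stimulation, and Trpm6 was higher under stimulation. Each is the 250 bases upstream of the RefSeq start on GRCm38.p6, read 5′ to 3′ on the plus strand, at chr9:89909525-89909774 for Rasgrf1, chr13:24942902-24943151 for Gpld1 and chr19:18749480-18749729 for Trpm6. Capitals mark CpG dinucleotides.
Rasgrf1: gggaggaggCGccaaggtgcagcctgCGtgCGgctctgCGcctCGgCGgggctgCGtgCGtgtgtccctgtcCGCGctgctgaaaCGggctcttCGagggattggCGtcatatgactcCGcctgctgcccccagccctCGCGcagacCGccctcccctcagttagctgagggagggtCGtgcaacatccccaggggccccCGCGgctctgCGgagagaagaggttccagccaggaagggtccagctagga
Gpld1: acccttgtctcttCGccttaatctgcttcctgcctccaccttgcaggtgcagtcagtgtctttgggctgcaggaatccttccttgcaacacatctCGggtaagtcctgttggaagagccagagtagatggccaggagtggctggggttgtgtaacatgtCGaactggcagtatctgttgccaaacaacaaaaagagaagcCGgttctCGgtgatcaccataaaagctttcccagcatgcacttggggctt
Trpm6: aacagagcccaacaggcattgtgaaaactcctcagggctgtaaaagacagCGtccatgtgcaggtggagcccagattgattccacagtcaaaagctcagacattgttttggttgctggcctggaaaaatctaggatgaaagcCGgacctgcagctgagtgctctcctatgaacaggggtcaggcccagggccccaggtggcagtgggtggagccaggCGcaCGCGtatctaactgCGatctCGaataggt
The Rasgrf1 stretch is rich in CpG, with 21 of them and a GC content of 69.2%, and 83.7% of all 32851 windows in the RefSeq table held fewer. Gpld1 had 5 CpG dinucleotides and Trpm6 had 7, near the median of 6 over all windows. The table matched 7 of the 8 genes with 9 windows, and their CpG counts ran from 1, in the first window of Pcyt1b, to 27, in the first window of Casz1. Windows from 250 bases before to 50 bases after the start were searched on both strands for the AP-1 motif TGANTCA, the CRE-like motif TGACGTCA, and 2 AP-1 and IRF composites that contain TGANTCA, one with GAAA after a further NNNN and one with GAAA directly before it. No match occurred in the 9 windows, while 7.81% of all windows held TGANTCA, 1.79% held TGACGTCA, 0.119% held the composite with GAAA after and 0.125% the one with GAAA before.

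The vector was checked first. Batf3 had 435, 414 and 434 CPM (read counts brought to a common depth with TMM factors) in Batf3 stimulated libraries, against 18.3, 19.1 and 17.7 CPM in control stimulated libraries. It had 475, 468 and 469 CPM in Batf3 non-stimulated libraries, against 7.44, 5.84 and 7.02 CPM in control non-stimulated libraries. Every library thus fitted its vector label, and gene counts do not separate RNA of the vector from that of the cells' own gene. Total counts lay between 14211564 and 14468231 per library, where 3 counts stood for 0.191 to 0.229 CPM. Such floors allow for counting error alone, because PCR copies of 1 molecule were not marked and count as separate reads.

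The genes were chosen for rises in these same libraries, so the counts and medians here describe that choice and are no support for it. In non-stimulated cells the label of genes raised by Batf3 applied to 6 of the 8. Rasgrf1, Ret, Gpld1, Pcyt1b, Grhl3 and Trpm6 were higher in all 3 Batf3 non-stimulated libraries than in any control non-stimulated library, while Casz1 and Arsb were lower in all 3. Over all tested genes, 20.7% were higher and 27.1% lower without overlap in the same comparison. In stimulated cells 7 of the 8 were higher in every Batf3 library, and Gpld1 overlapped, beside 19.9% of tested genes that were higher without overlap and 19.9% that were lower. The median log2 difference of the 8, Batf3 minus control, was 1.25 in stimulated and 1.70 in non-stimulated cells, against 0.00 and -0.02 over all tested genes. In bulk RNA, fewer cells that express a gene and less RNA per cell cannot be told apart.

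**Figure D1:**
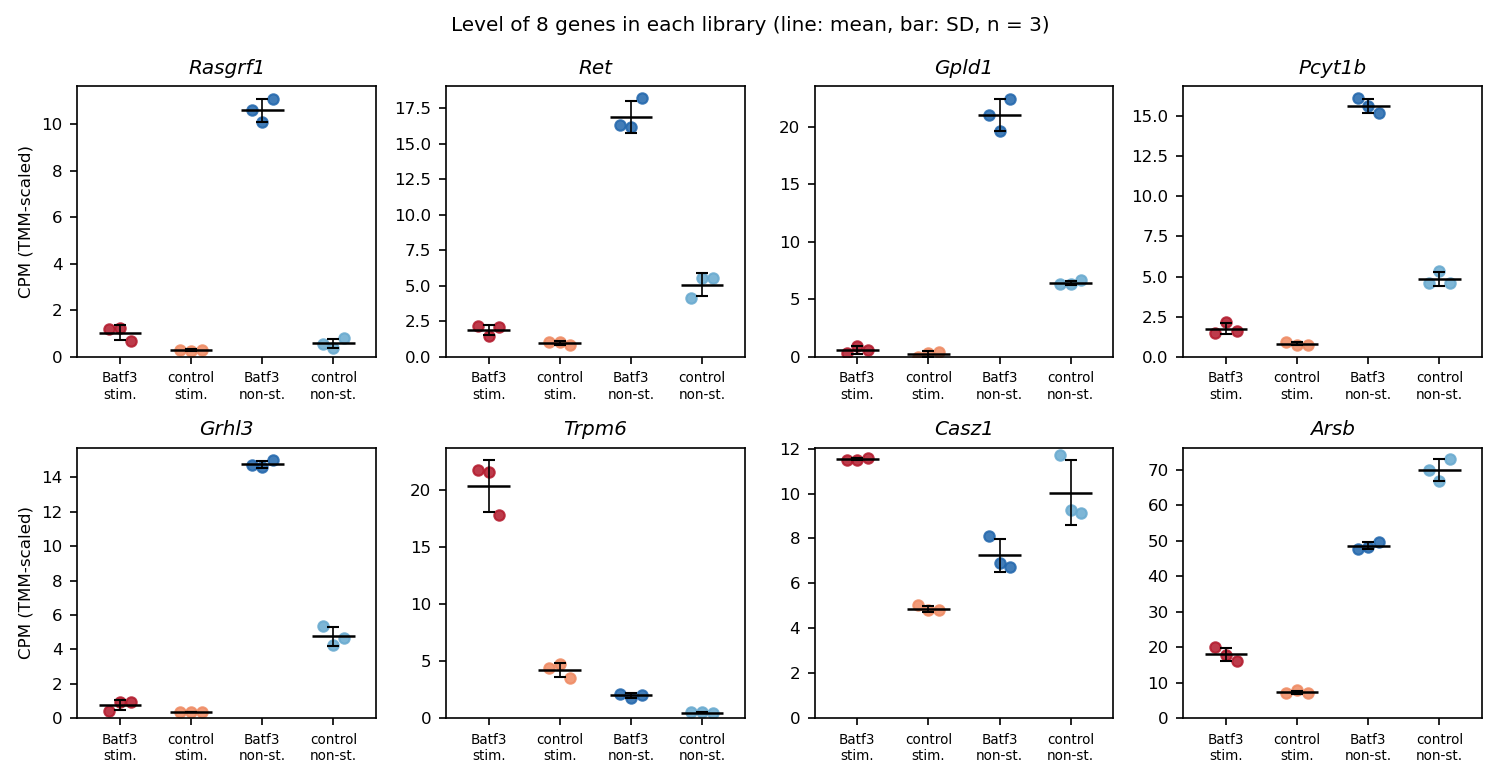
CPM (TMM-scaled) of the 8 genes in each of the 12 libraries on linear axes from 0, with 1 panel per gene, 1 point per library, a line at the mean of each group and a bar for the SD (n = 3). Rasgrf1, Ret, Gpld1, Pcyt1b and Grhl3 are highest in Batf3 non-stimulated cells, Trpm6 is highest in Batf3 stimulated cells, and Arsb is highest in control non-stimulated cells.

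Rasgrf1 encodes a guanine nucleotide exchange factor that loads RAS with GTP in response to calcium and is best known from neurons. The gene lies on chromosome 9 from 89909908 to 90026977 on the plus strand of GRCm38. It had 1.19, 1.26 and 0.664 CPM in Batf3 stimulated libraries, against 0.305, 0.229 and 0.305 CPM in control stimulated libraries. All 6 of these libraries were low, with 42 counts over the Batf3 stimulated group and 11 over the control stimulated group, and the groups did not overlap (log2 difference 1.86 ± 0.50, SE, n = 3 libraries per group). It had 10.6, 10.1 and 11.1 CPM in Batf3 non-stimulated libraries, against 0.531, 0.398 and 0.795 CPM in control non-stimulated libraries. The lowest Batf3 library thus stood far above the highest control library. The log2 difference was 4.18 ± 0.31, an 18.1-fold difference and rank 7 of the 15702 tested genes.

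Ret encodes the receptor tyrosine kinase for the GDNF family of ligands and is needed for the enteric nervous system and the kidney. The gene spans chromosome 6 from 118151745 to 118197718 on the minus strand. Ret had 2.16, 1.48 and 2.07 CPM in Batf3 stimulated libraries, against 1.07, 1.07 and 0.838 CPM in control stimulated libraries (log2 difference 0.94 ± 0.30). In non-stimulated cultures it had 16.3, 16.2 and 18.2 CPM with Batf3, against 4.12, 5.57 and 5.57 CPM in control cells, a log2 difference of 1.73 ± 0.13. The groups did not overlap in either culture, and unlike Rasgrf1, Ret was well above the counting floor in control non-stimulated cells.

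Gpld1 encodes a phospholipase D that cuts glycosylphosphatidylinositol (GPI) anchors and is known as a plasma enzyme made in the liver. It lies on chromosome 13 from 24943152 to 24992501 on the plus strand. Gpld1 was close to absent after stimulation, at 0.298, 0.964 and 0.590 CPM in Batf3 stimulated libraries, against 0, 0.305 and 0.457 CPM in control stimulated libraries. These groups overlapped. With 25 counts over the Batf3 stimulated group and 10 over the control stimulated group, the log2 difference of 1.25 ± 0.59 is loosely fixed: it was 0.68 without control stimulated replicate 1, 1.95 without control stimulated replicate 3 and 0.78 without Batf3 stimulated replicate 2. In non-stimulated cultures Gpld1 had 21, 19.6 and 22.4 CPM with Batf3, against 6.31, 6.30 and 6.63 CPM in control cells, a log2 difference of 1.71 ± 0.12 with no overlap. Gpld1 overlaps Mrs2 on the other strand, and the strand setting of the counting is not given in the sources used here. Mrs2 was called higher by 0.18 ± 0.06 with Batf3 in non-stimulated cells (adjusted p 0.00912), a call lost without control non-stimulated replicate 1 (adjusted p 0.123).

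Pcyt1b encodes the beta form of the CTP-dependent enzyme that sets the rate of phosphatidylcholine synthesis. Its place is on chromosome X from 93654863 to 93749951 on the plus strand. Pcyt1b had 1.49, 2.15 and 1.62 CPM in Batf3 stimulated libraries, against 0.914, 0.762 and 0.762 CPM in control stimulated libraries (log2 difference 1.10 ± 0.31). In non-stimulated cultures it had 16.1, 15.6 and 15.2 CPM with Batf3, against 4.58, 5.37 and 4.57 CPM in control cells (log2 difference 1.69 ± 0.13). Batf3 libraries were the higher ones without overlap in both cultures.

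Grhl3 encodes a grainyhead transcription factor required for the skin barrier and neural tube closure. It lies on chromosome 4 from 135541888 to 135573630 on the minus strand. Grhl3 had 0.446, 0.964 and 0.959 CPM in Batf3 stimulated libraries, against 0.381 CPM in each control stimulated library (log2 difference 1.04 ± 0.46), at 32 counts over the Batf3 stimulated group and 15 over the control stimulated group. In non-stimulated cultures it had 14.7, 14.6 and 15.0 CPM with Batf3, against 5.38, 4.24 and 4.64 CPM in control cells (log2 difference 1.63 ± 0.13). The groups did not overlap in either culture.

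Trpm6 encodes an ion channel with a kinase domain that takes up magnesium in kidney and intestine. The gene spans chromosome 19 from 18749983 to 18892511 on the plus strand. Trpm6 had 21.8, 21.6 and 17.8 CPM in Batf3 stimulated libraries, against 4.42, 4.73 and 3.58 CPM in control stimulated libraries (log2 difference 2.26 ± 0.14, a 4.8-fold difference). In non-stimulated cultures it had 2.17, 1.79 and 2.05 CPM with Batf3, against 0.531, 0.530 and 0.464 CPM in control cells (log2 difference 1.96 ± 0.35). Both vectors thus had more Trpm6 in stimulated than in non-stimulated cells, and Batf3 libraries were higher in both cultures.

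Casz1 encodes a zinc finger transcription factor known from heart and retina. It lies on chromosome 4 from 148804429 to 148954889 on the plus strand. Casz1 had 11.5, 11.5 and 11.6 CPM in Batf3 stimulated libraries, against 5.03, 4.80 and 4.80 CPM in control stimulated libraries (log2 difference 1.24 ± 0.14). In non-stimulated cells the order was turned round, with 8.10, 6.92 and 6.73 CPM with Batf3, against 11.7, 9.28 and 9.14 CPM in control cells (log2 difference -0.47 ± 0.12). The groups did not overlap in either culture. Gm13205, an antisense gene inside Casz1, had 4 to 18 counts per library, against at least 63 for Casz1, and without the strand setting their reads cannot be told apart.

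Arsb encodes arylsulfatase B, the lysosomal enzyme that takes sulfate off dermatan and chondroitin sulfate. It lies on chromosome 13 from 93771630 to 93943016 on the plus strand. Arsb had 20.0, 17.8 and 16.2 CPM in Batf3 stimulated libraries, against 7, 7.85 and 7.08 CPM in control stimulated libraries (log2 difference 1.30 ± 0.11). In non-stimulated cells it had 47.7, 48.4 and 49.7 CPM with Batf3, against 70.0, 66.9 and 73.0 CPM in control cells (log2 difference -0.53 ± 0.06). As for Casz1, Batf3 libraries were the higher ones in stimulated cells and the lower ones in non-stimulated cells, without overlap.

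**Figure D2:**
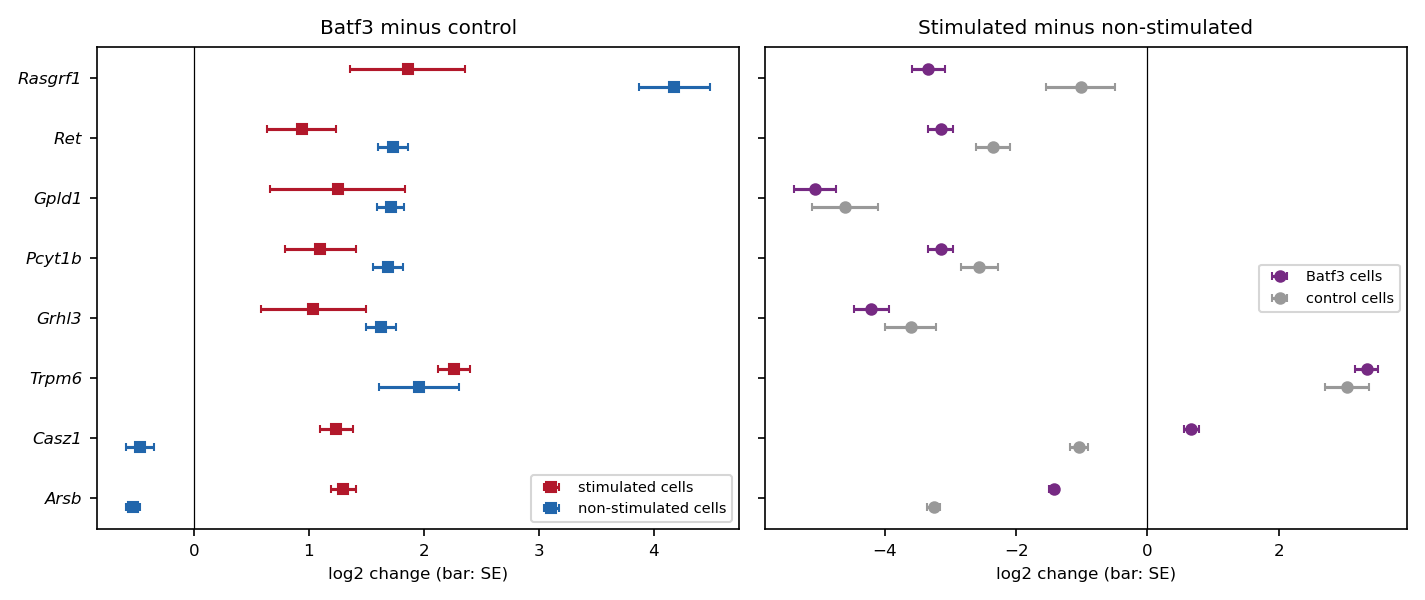
Log2 change with its SE for each of the 8 genes, for Batf3 minus control in stimulated and non-stimulated cells on the left, and for stimulated minus non-stimulated in Batf3 and control cells on the right. On the left, Casz1 and Arsb lie below 0 in non-stimulated and above 0 in stimulated cells, and on the right, Trpm6 lies above 0 for both vectors.

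Levels were set between genes as CPM per kilobase of exon. In Batf3 stimulated cells Arsb stood at 2.98 and Trpm6 at 2.64, against 1.21 for Arsb and 0.549 for Trpm6 in control stimulated cells. Rasgrf1 and Gpld1 were the lowest of the 8 in both stimulated groups. Within each of these groups, Rasgrf1 did not differ from Gpld1 beyond their spread. Rasgrf1 stood at 0.0939 ± 0.0295 with Batf3 and 0.0252 ± 0.00396 in control cells (SD, n = 3 libraries), and Gpld1 at 0.114 ± 0.0617 and 0.0469 ± 0.043. In Batf3 non-stimulated cells Arsb led at 8.05, followed by Grhl3 at 5.30, Gpld1 at 3.88, Pcyt1b at 2.92 ± 0.0816, Ret at 2.50 ± 0.165 (SD, n = 3 libraries), Rasgrf1 at 0.956, Casz1 at 0.593 and Trpm6 at 0.260. In control non-stimulated cells Arsb also led, at 11.6, followed by Grhl3 at 1.70, Gpld1 at 1.18, Pcyt1b at 0.904 ± 0.0855, Casz1 at 0.821 ± 0.117 and Ret at 0.752 ± 0.124, with Trpm6 at 0.0659 and Rasgrf1 at 0.0520. Pcyt1b and Casz1, and Casz1 and Ret, neighbours in that order, did not differ beyond their spread. Of the tested genes with a length, 20.5% lay below Rasgrf1 in Batf3 non-stimulated cells and 2.15% in control non-stimulated cells. For Trpm6 these shares were 7.85% and 2.68%, for Arsb they were 61.9% and 69.4%, and for the other 5 genes they ran from 15.1% to 51.4% and from 18.6% to 29.4%. In control stimulated cells 18.3% lay below Trpm6, 28.3% below Arsb, and from 1.05% to 14.8% below the other 6. Rasgrf1 thus stood near the bottom of the tested range in both control groups, Gpld1 in the stimulated one (2.07%) and Trpm6 in the non-stimulated one. The filter counted the libraries of every group together, and these genes were chosen for rises with Batf3. A low place in control cells is thus in part a product of that choice. Arsb in control non-stimulated cells lay above most tested genes, which goes against the word ectopic for it. Ret, Gpld1, Pcyt1b, Grhl3 and Casz1 were also expressed there without the Batf3 vector, at 215 to 454 counts over the group.

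Stimulation was a contrast that did not choose the genes, and it was tested with edgeR's quasi-likelihood test, adjusted over all 15702 genes. In Batf3 cells, 6 of the 8 genes fell and 2 rose in stimulated against non-stimulated cultures, and in control cells 6 fell, 1 rose and 1 was not called. The test called 41.4% of all genes as fallen and 41.2% as risen in Batf3 cells, and 40.7% as fallen and 39.6% as risen in control cells. With library sizes alone in place of TMM factors, the all-gene median log2 change was -0.20 in Batf3 cells and -0.19 in control cells, in place of 0.01 and -0.01. These comparisons share libraries with those of Batf3 and control cells. Values that chose the 8 genes thus enter them again, and their p-values for these genes are not independent of that choice. Rasgrf1, Gpld1 and Grhl3 also had too few counts in stimulated libraries to pass the filter on those alone. They were tested because of their non-stimulated libraries, so a fall was the likelier outcome for them.

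Gpld1 had the deepest fall of the 8. It fell by 5.07 ± 0.32 on the log2 scale in Batf3 cells (edgeR adjusted p 9.31e-33) and by 4.61 ± 0.50 in control cells (adjusted p 3.82e-21). Grhl3 fell by 4.21 ± 0.27 in Batf3 cells (adjusted p 1.59e-29) and by 3.61 ± 0.39 in control cells (adjusted p 4.11e-18). Ret and Pcyt1b both fell by 3.15 ± 0.19 in Batf3 cells, and by 2.35 ± 0.26 for Ret and 2.56 ± 0.28 for Pcyt1b in control cells (adjusted p between 8.83e-28 and 1.54e-14). These 4 genes were lower in every stimulated library than in any non-stimulated library of the same vector. Rasgrf1 fell by 3.34 ± 0.25 in Batf3 cells (adjusted p 2.72e-23). In control cells, where it was near the floor in both cultures, its log2 change of -1.02 ± 0.53 was not called by edgeR (adjusted p 0.0575). That call rested on the setting, since it was -1.20 (adjusted p 0.0248) with library sizes alone and -1.23 (adjusted p 0.0312) without control non-stimulated replicate 2, and over the 18 alternatives that gave a value the adjusted p ran from 0.0248 to 0.246.

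Trpm6 rose in both, by 3.34 ± 0.17 in Batf3 cells (edgeR adjusted p 1.18e-30) and 3.04 ± 0.33 in control cells (adjusted p 4.63e-16). Arsb fell by 1.43 ± 0.07 in Batf3 cells (adjusted p 2.21e-28) and by 3.26 ± 0.10 in control cells (adjusted p 4.35e-44). Casz1 rose by 0.67 ± 0.12 in Batf3 cells (adjusted p 9.7e-07) and fell by 1.04 ± 0.14 in control cells (adjusted p 3.33e-10). The gap between the vectors in this response is the same quantity as the gap between the cultures in the Batf3 difference. It was 1.82 ± 0.12 for Arsb, 1.71 ± 0.18 for Casz1, 0.30 ± 0.37 for Trpm6 and -2.32 ± 0.59 for Rasgrf1, and between -0.80 and -0.46 for Ret, Gpld1, Pcyt1b and Grhl3, given without a test.

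The libraries were checked for other cells. All 8 CD8 T cell markers had at least 1 CPM on average in every group, and their summed level was 1980 to 2040 CPM in Batf3 stimulated, 1600 to 1610 in control stimulated, 2100 to 2120 in Batf3 non-stimulated and 2170 to 2190 in control non-stimulated libraries. Cd4 stayed at or below 0.668 CPM. Of 8 markers of neurons and neural crest, where Rasgrf1 and Ret are best known, Snap25, Syt1 and Rbfox3 had no count in either non-stimulated group. The list summed to 1.56 to 2.89 CPM in Batf3 stimulated, 2.28 to 2.74 in control stimulated, 12.5 to 14.5 in Batf3 non-stimulated and 8.81 to 9.30 in control non-stimulated libraries. In non-stimulated cells nearly all of it was Tubb3, at 13.1 CPM with Batf3 and 8.76 CPM in control cells.

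Epithelial markers, for Grhl3, summed to 28.9 to 31.2 CPM in Batf3 stimulated libraries, against 20.8 to 23.3 CPM in control stimulated libraries, and to 56.3 to 59.3 CPM in Batf3 non-stimulated libraries, against 73.2 to 75.7 CPM in control non-stimulated libraries. The order of these sums thus differed between the cultures. Krt8 was at 11.2 and 7.13 CPM in Batf3 and control stimulated cells, and Cdh1 at 44.1 and 62.8 CPM in Batf3 and control non-stimulated cells. Epcam, Krt8 and Krt18 did not follow the sum in non-stimulated cells. Their means there were 2.67, 7.06 and 3.05 CPM with Batf3, against 1.97, 6.74 and 2.45 CPM in control cells, with overlapping libraries. Markers of liver and kidney, for Gpld1 and Trpm6, summed to at most 0.897 CPM in any library, with Alb, Ttr and Umod at 0 in all groups. The sum of the 10 markers of myeloid and dendritic cells was higher with Batf3 in both cultures. It was 63.8 to 66.5 CPM in Batf3 stimulated libraries, against 37.6 to 42.3 CPM in control stimulated libraries. In non-stimulated libraries it was 31.9 to 34.5 CPM with Batf3, against 24.9 to 26.2 CPM in control cells. The single markers did not all share this order. Zbtb46 was lower with Batf3, at 11.09 against 16.15 CPM in stimulated cells and 5.887 against 7.186 CPM in non-stimulated cells. Itgax, which activated T cells also express, stood at 43.7 and 17.6 CPM in Batf3 and control stimulated cells, and Lyz2 and Siglech were at 0 in every group. Stromal and endothelial markers were led by Pecam1 and summed to 7.05 to 8.63 CPM in Batf3 stimulated, 6.33 to 7.77 in control stimulated, 53.8 to 54.5 in Batf3 non-stimulated and 54.4 to 58.8 in control non-stimulated libraries. Within that list Col1a2 was at 2.07 CPM in Batf3 non-stimulated cells and 0.508 CPM in control non-stimulated cells. Erythroid markers summed to at most 2.18 CPM, with Hba-a1 at 1.49 and 0.420 CPM in the same groups and Hbb-bs at 0. The B cell list was nearly all Ighm, with Ms4a1 at 0 in every group, and summed to 40.1 to 44.4 CPM in Batf3 stimulated, 51.2 to 55.4 in control stimulated, 392 to 411 in Batf3 non-stimulated and 360 to 374 in control non-stimulated libraries. The NK list was nearly all Eomes, which CD8 T cells also express, and summed to 38.9 to 41.2, 45 to 47, 151 to 155 and 326 to 337 CPM in the same 4 groups, with Ncr1 and Klra8 at 0. The part of these marker differences in the results above was not tested.

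The nearest relatives of the 8 genes were not chosen for a Batf3 difference and were tested. Rasgrf2, the paralog of Rasgrf1, was not called in either culture, at 3.99 CPM with Batf3 and 4.58 CPM in control non-stimulated cells (log2 -0.20 ± 0.18, edgeR adjusted p 0.414) and -0.04 ± 0.27 in stimulated cells (adjusted p 0.937). Pcyt1a, the widely expressed alpha form beside Pcyt1b, was at 31.0 CPM with Batf3 and 29.7 CPM in control non-stimulated cells (log2 0.06 ± 0.07, adjusted p 0.522). In stimulated cells Pcyt1a was lower with Batf3, at 7.68 CPM against 10.7 CPM in control cells (log2 -0.48 ± 0.12, adjusted p 0.000448). Per kilobase Pcyt1a stood at 4.18 and Pcyt1b at 2.92 in Batf3 non-stimulated cells, against 4.01 and 0.904 in control non-stimulated cells.

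Grhl1, a paralog of Grhl3, had the opposite response to stimulation: it rose by 4.27 ± 0.15 in Batf3 cells and 4.53 ± 0.18 in control cells (edgeR adjusted p 5.59e-43 and 2.94e-41). With Batf3 it was higher in stimulated cells, at 47.6 CPM against 38.4 CPM in control cells (log2 0.31 ± 0.07, adjusted p 0.000192). Its Batf3 difference in non-stimulated cells, 0.56 ± 0.22 (adjusted p 0.0331), and that of Grhl2 in stimulated cells, 0.60 ± 0.21 (adjusted p 0.0244), did not hold in every setting. The call for Grhl1 was lost in 6 of 19 alternatives, at adjusted p up to 0.172. Among these were the fits without control non-stimulated replicate 2 or 3 or Batf3 non-stimulated replicate 2 or 3. That for Grhl2 was lost in 5 of 19, at adjusted p up to 0.241. Among these were the fits without control stimulated replicate 1 or 3 or Batf3 stimulated replicate 2 or 3.

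Trpm7, the broadly expressed relative of Trpm6, had 101.3 CPM with Batf3 and 89.8 CPM in control non-stimulated cells (log2 0.17 ± 0.05, edgeR adjusted p 0.00762). That call was lost without Batf3 non-stimulated replicate 2 (adjusted p 0.0639), and in stimulated cells Trpm7 was not called (log2 -0.05, adjusted p 0.62). Trpm7 fell with stimulation, by 0.69 in Batf3 cells and 0.47 in control cells (adjusted p 1.6e-13 and 2.94e-09), where Trpm6 rose. Arsa, the sulfatase of cerebroside sulfate, was not called with Batf3 in non-stimulated (log2 0.18 ± 0.11, adjusted p 0.181) or stimulated cells (0.20 ± 0.26, adjusted p 0.608).

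**Figure D3:**
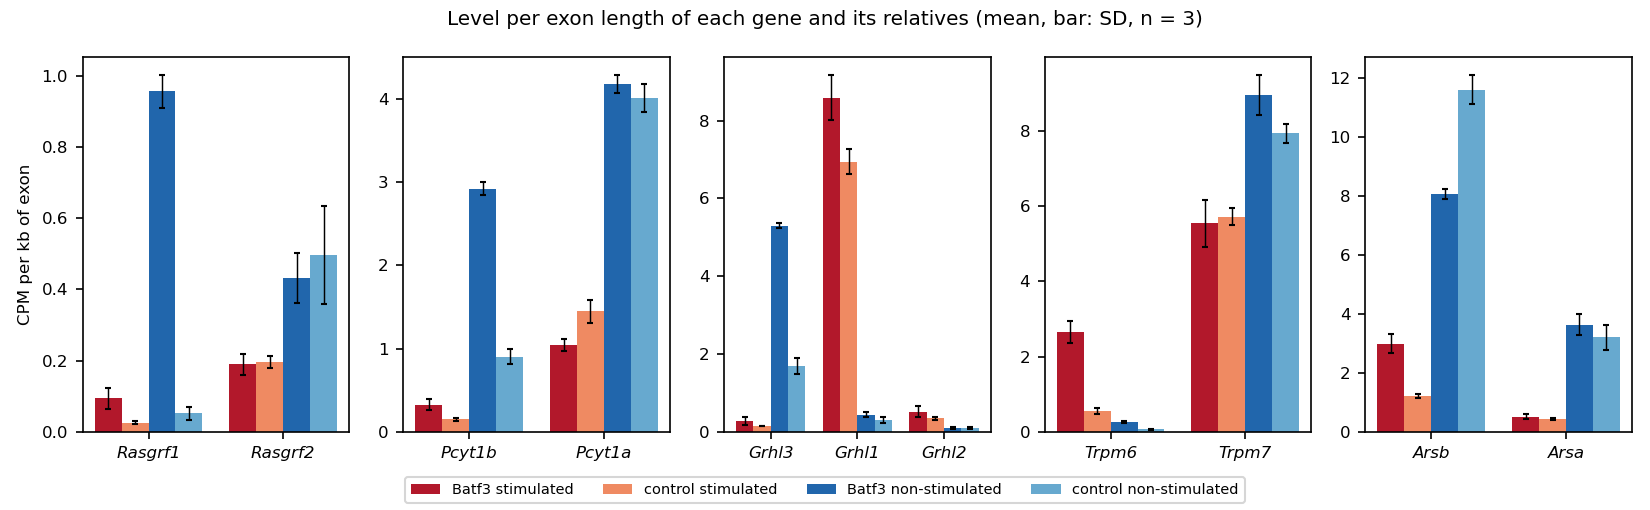
Mean CPM per kb of exon (bars from 0, with the SD, n = 3) of 5 of the genes beside their nearest relatives in the 4 groups. Between Batf3 and control non-stimulated cells Pcyt1a (4.18 and 4.01) differs little, where Pcyt1b (2.92 and 0.904) differs widely.

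Lists of pathway partners and family members, with the 8 genes left out, were read against the background. In non-stimulated cells 25 of the 128 tested genes rose with Batf3 (19.5%) and 24 fell (18.8%), with a median log2 change of 0.03, beside 16.3% risen and 23% fallen over all tested genes. In stimulated cells 20 rose (15.6%) and 22 fell (17.2%), with a median of -0.05, beside 14.8% and 14.6%. Without control stimulated replicate 1 or 2, the number that rose in stimulated cells was 13. These shares lie near the background. The all-gene split moves with the scaling: rises were 41.5% of calls in non-stimulated and 50.3% in stimulated cells with TMM factors, and 60.1% and 65.6% with library sizes alone.

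Exchange factors for RAS, the group of Rasgrf1, gave 3 rises and 2 falls among 6 tested genes in non-stimulated cells and 3 rises in stimulated cells. The risers were Rasgrp1, Rasgrp2 and Rasgrp4 in both cultures. Rasgrp2 had 347.4 CPM with Batf3 and 232.8 CPM in control non-stimulated cells (log2 0.58 ± 0.04, edgeR adjusted p 9.66e-23), and 11.3 against 6.53 CPM in stimulated cells (0.79 ± 0.12, adjusted p 2.31e-09). Rasgrp1, the main RAS exchange factor downstream of the T cell receptor, rose by 0.23 ± 0.04 and 0.19 ± 0.05 in the same comparisons. Sos2 fell by 0.21 ± 0.05 in non-stimulated cells (adjusted p 0.000429), and Sos1 fell by 0.21 ± 0.06 (adjusted p 0.00163), a call lost with library sizes alone (adjusted p 0.051). RAS proteins and their GTPase-activating proteins gave 2 rises and 2 falls among 15 in non-stimulated cells, and 6 and 2 in stimulated cells. Rasa4 fell to 31.1 CPM with Batf3, against 66.3 CPM in control non-stimulated cells (log2 -1.09 ± 0.06, adjusted p 3.72e-23), and Rasa3 rose to 37.4 CPM with Batf3, against 14.2 CPM in control stimulated cells (1.39 ± 0.08, adjusted p 1.41e-27).

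RET needs a GFRA coreceptor to bind its ligands, and the coreceptor genes had few counts in every group. Of the 10 ligands and coreceptors, Nrtn alone passed the filter and was not called. Gfra1 had 22 counts over the Batf3 stimulated group, 16 in control stimulated, 5 in Batf3 non-stimulated and 8 in control non-stimulated cells, and Gfra2, Gfra3 and Gfra4 had at most 11 counts in any group. Gdnf had 2 to 4 counts per group and Artn had none. Of 9 tested adaptors that dock on RET, 2 rose and 2 fell in non-stimulated cells, among them Grb7 (log2 1.08 ± 0.22, edgeR adjusted p 3.74e-05) and Dok1 (-0.34 ± 0.08, adjusted p 0.000181). In stimulated cells 2 rose and 1, Dok2, fell.

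Other receptor tyrosine kinases gave 6 rises and 2 falls among 14 tested genes in non-stimulated cells, a median of 0.32, and 2 rises and 4 falls in stimulated cells. Fgfr1 had 4.93 CPM with Batf3 and 2.39 CPM in control non-stimulated cells (log2 1.04 ± 0.21, edgeR adjusted p 2.37e-05). Igf1r, the receptor of insulin-like growth factor, had 9.09 and 4.67 CPM in the same groups (0.96 ± 0.13, adjusted p 4.87e-09). Kit fell in both cultures, by 0.58 ± 0.08 in non-stimulated and 0.49 ± 0.07 in stimulated cells (adjusted p 1.1e-08 and 1.99e-09).

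Enzymes that make, trim or release GPI anchors, the substrate of Gpld1, gave 2 rises and 5 falls among 29 tested genes in non-stimulated cells, and 2 and 3 in stimulated cells. Pigz, a mannosyltransferase, rose by 1.38 ± 0.25 (edgeR adjusted p 2.96e-06) and Pgap1, which trims the anchor's lipid, by 0.86 ± 0.17 (adjusted p 2.78e-05) in non-stimulated cells. Genes for the synthesis of phosphatidylcholine and phosphatidylethanolamine gave 2 rises and 5 falls among 16 in non-stimulated cells, and 2 and 4 in stimulated cells. Chpt1, the cholinephosphotransferase that acts after Pcyt1b, fell to 6.70 CPM with Batf3, against 10.9 CPM in control non-stimulated cells (log2 -0.70 ± 0.14, adjusted p 3.06e-05), and Pld2 rose by 0.70 ± 0.10 (adjusted p 2.38e-08). Slc44a2, a choline transporter-like protein, fell to 26.2 CPM with Batf3, against 45.8 CPM in control stimulated cells (-0.81 ± 0.07, adjusted p 4.63e-19).

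Of the 5 grainyhead and CP2 factors other than Grhl3, 2 rose and none fell in each culture (edgeR), with medians of 0.10 and -0.03. Besides the Grhl1 and Grhl2 calls above, Tfcp2l1 rose by 1.94 ± 0.54 in non-stimulated cells at a low level, 1.05 CPM with Batf3 and 0.265 CPM in control cells (adjusted p 0.000785). Among TRPM channels and magnesium transporters, 4 rose and 1 fell of 14 in non-stimulated cells, and 1 rose and 4 fell in stimulated cells. The magnesium transporter Slc41a2 rose to 11.3 CPM with Batf3, against 6.17 CPM in control non-stimulated cells (0.87 ± 0.14, adjusted p 2.63e-07), and by 1.01 ± 0.31 in stimulated cells (adjusted p 0.0061), a call lost without Batf3 stimulated replicate 2 (adjusted p 0.0996). Sulfatases and lysosomal enzymes of glycosaminoglycan breakdown, the group of Arsb, gave 2 rises and 5 falls of 19 in non-stimulated cells, and 0 rises and 4 falls in stimulated cells. Sgsh, a heparan sulfatase, rose by 0.78 ± 0.10 in non-stimulated cells (adjusted p 5.74e-10), and Sulf2, an extracellular one, fell by 0.93 ± 0.14 in stimulated cells (adjusted p 1.15e-07).

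**Figure D4:**
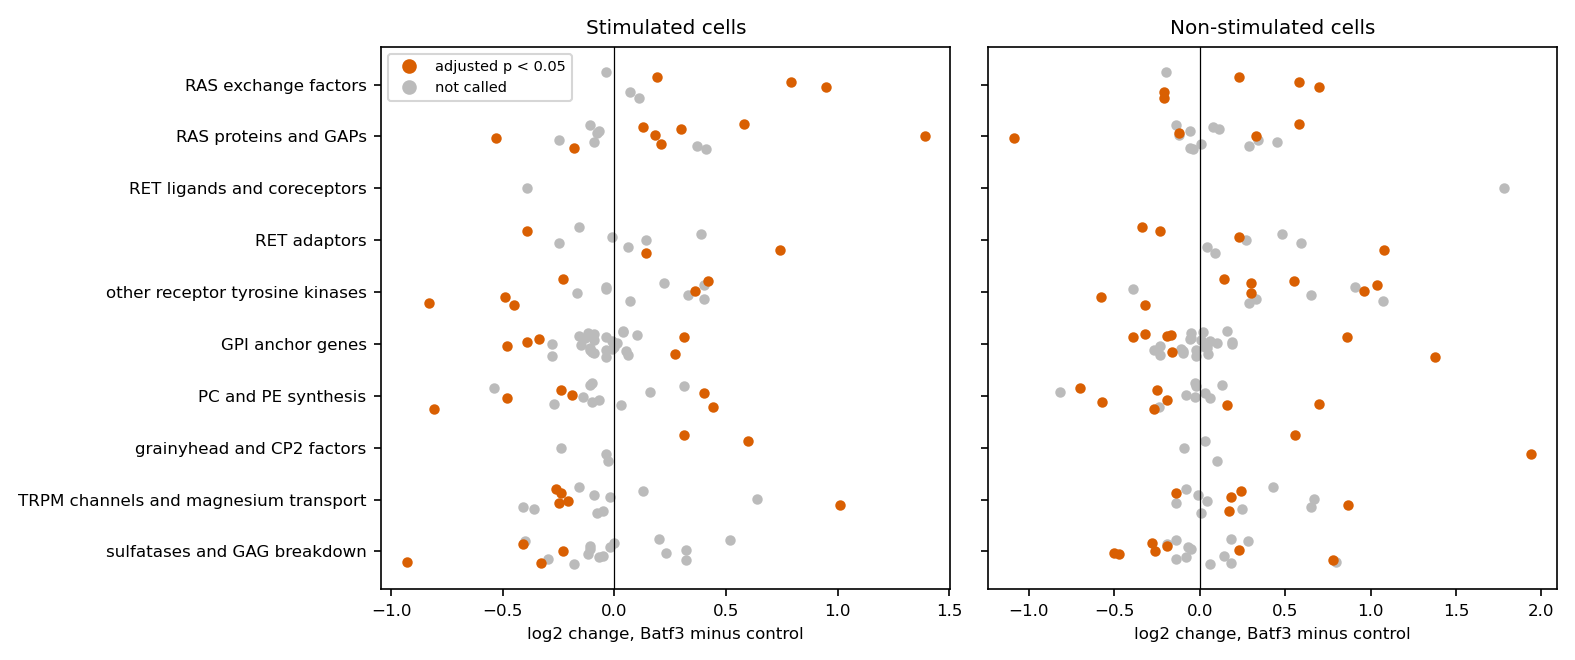
Log2 change, Batf3 minus control, of the tested genes of each list in stimulated and non-stimulated cells, with 1 point per gene, orange where the adjusted p is under 0.05 and grey where it is not. Points lie on both sides of 0 in most lists, and the RET ligands and coreceptors show 1 point.

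Genes next to the 8 on the chromosome were tested as well. Of 123 annotated genes within 250 kb, 47 were tested, and 9 rose (19.1%) and 14 fell (29.8%) with Batf3 in non-stimulated cells, beside 16.3% and 23% of all tested genes. In stimulated cells 8 rose (17%) and 8 fell (17%), beside 14.8% and 14.6% of all tested genes. The number that rose was 5 without control stimulated replicate 1 or without Batf3 stimulated replicate 1. Of the 5 tested neighbours of Rasgrf1, none rose in non-stimulated cells (edgeR, all 5 log2 changes below 0) and 1, Tbc1d2b, rose in stimulated cells (log2 0.29 ± 0.07, adjusted p 0.000235), where in non-stimulated cells it fell by 0.23 ± 0.05 (adjusted p 5e-05). Tbc1d2b is named after its values were seen. In non-stimulated cells Tmed3, 204.8 kb to one side of Rasgrf1, was not called (log2 -0.04, edgeR adjusted p 0.71), and Morf4l1, 64.7 kb to the other, was lower by 0.15 (adjusted p 0.000144), a call lost with library sizes alone (adjusted p 0.0571). Csgalnact2, 12.6 kb from Ret, was not called in non-stimulated cells (0.21, adjusted p 0.0539) but was called in 9 of 19 alternatives, at 0.12 to 0.28 over all of them. Of the 7 tested neighbours of Gpld1, 3 rose and 1 fell in non-stimulated cells, and 2 rose and 1 fell in stimulated cells. The nearest on one side, Aldh5a1, 5.5 kb from Gpld1, was not called in non-stimulated cells (0.41, adjusted p 0.417). Pdk3, 14.7 kb from Pcyt1b, fell by 0.31 ± 0.07 in non-stimulated cells (adjusted p 0.000227).

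Beside Grhl3, Nipal3, a magnesium transporter-like gene 46.9 kb away, rose to 93.0 CPM with Batf3, against 62.6 CPM in control non-stimulated cells (log2 0.57 ± 0.05, edgeR adjusted p 1.13e-15). The locus of Trpm6 held 4 tested neighbours, of which 3 rose in both cultures (Nmrk1 in stimulated cells at adjusted p 0.027). The nearest, D030056L22Rik, 31.6 kb away, had 29.6 CPM with Batf3 and 20.7 CPM in control non-stimulated cells (0.52 ± 0.07, adjusted p 1.7e-09), and 68.3 against 46.7 CPM in stimulated cells (0.55 ± 0.06, adjusted p 4.52e-13). Pex14, 5.6 kb from Casz1, was lower with Batf3 in both cultures, by 0.34 ± 0.11 in non-stimulated (adjusted p 0.00492) and 0.29 ± 0.10 in stimulated cells (adjusted p 0.0127, and 0.0533 without control stimulated replicate 3 or 0.053 without Batf3 stimulated replicate 3), while Casz1 was lower in the first and higher in the other. Lhfpl2, 114.8 kb from Arsb, was called in neither culture (adjusted p 0.67 and 0.145).

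**Figure D5:**
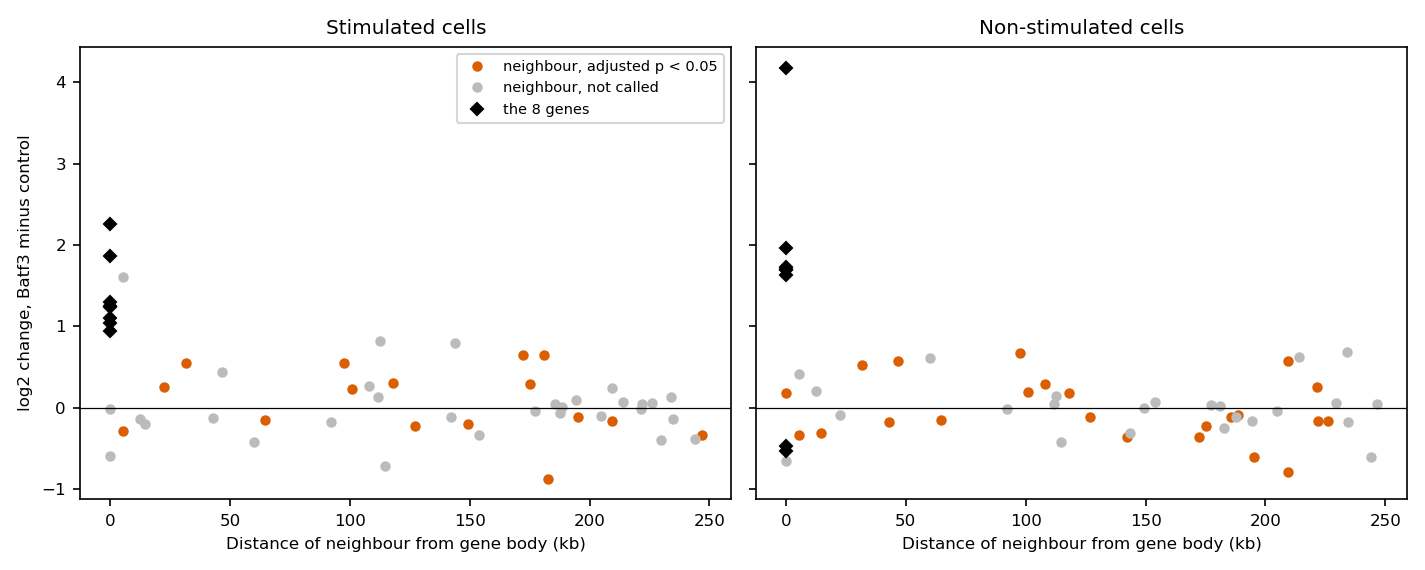
Log2 change, Batf3 minus control, of the 47 tested genes within 250 kb of the 8 genes against their distance in kb from the gene body, orange where called and grey where not, with the 8 genes themselves as black diamonds at 0 kb. In non-stimulated cells every neighbour lies below 1, while Rasgrf1 stands at 4.18.

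Likeness was measured as Pearson's r of log2 CPM over the 12 libraries, which mostly follows the 4 group levels. Ret and Pcyt1b had the same pattern (r = 0.99), as did Pcyt1b and Grhl3 (0.99) and Gpld1 and Grhl3 (0.98). Rasgrf1 was less like Ret (0.85), Trpm6 ran between -0.66 and 0.13 with the others, and Casz1 between 0.09 and 0.54. Arsb ran from 0.83 to 0.88 with Ret, Gpld1, Pcyt1b and Grhl3 and was at 0.50 with Rasgrf1. In non-stimulated cells its Batf3 difference had the opposite sign to theirs, so a high r need not mean the same order of groups. Among 11282 other genes, the most like Rasgrf1 was Ep400 (0.9841), Ret was closest to Sgk1 (0.9936), Gpld1 to Rfx1 (0.9881), Pcyt1b to Dglucy (0.9955), Grhl3 to Syne2 (0.9967), Trpm6 to Rora (0.9967), Casz1 to Jarid2 (0.9551) and Arsb to Fam241a (0.9962). Sgk1 was among the 3 closest genes of both Ret and Pcyt1b (0.9901).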

How the data were processed

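RNA was measured in 12 libraries, 3 per group. Per the labels' protocols, polyadenylated RNA from 100 ng of total RNA was made into libraries with a stranded kit and 15 PCR cycles. The deposited values are raw read counts for each Ensembl gene. Per the submitters' processing notes, the authors obtained these counts with STAR 2.7, GRCm38 and featureCounts. Not given in the sources used here are the annotation release, how strand was set and how multiply aligned reads were counted, and such reads or reads of overlapping genes could shift a low count. Of 55335 gene identifiers, 55154 matched GENCODE M21 (GRCm38), which gave coordinates and exon lengths.

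The analysis used edgeR 4.0.16 in R 4.3.3: filterByExpr at its defaults (15702 genes left), TMM factors (0.9171 to 1.102), 4 group means over all 12 libraries with 8 residual degrees of freedom, and robust quasi-likelihood tests, two-sided, with Benjamini-Hochberg adjustment over all tested genes. A gene was called, and is said to have risen or fallen, at an adjusted p under 0.05. CPM are without a pseudocount. Steps across all genes were tested on simulated data. Alternatives were DESeq2 1.42.0, limma-voom (limma 3.58.1), other scalings, no filter, a replicate block, a fit of 2 groups alone, other neighbour distances and leaving out each library. Replicates of a group differed by more than counting noise, and none was a copy.

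The 8 genes and all lists were chosen with earlier results of these data known. Named beside the 8 genes are their nearest relatives, up to 2 called genes per list, contrast and direction with the largest change at a mean of at least 1 CPM, the nearest tested coding gene on either side within 250 kb, the genes with the highest correlation, and the listed markers. Of the 64 calls so named from the lists, 24 were lost in at least 1 of up to 19 alternatives. Most of these, and some others, are given in the counts alone, a choice made after their values were seen. Promoter sequences are from RefSeq (GRCm38.p6).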

Additional observations from a re-analysis of the deposited data

Results flagged for a closer look

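Casz1 and Arsb moved in opposite directions with Batf3 in the 2 cultures, with every Batf3 library on one side of every control library in each. For Casz1 the log2 difference, Batf3 minus control, was 1.24 in stimulated cells and -0.47 in non-stimulated cells. For Arsb it was 1.30 in stimulated cells and -0.53 in non-stimulated cells. The difference between the cultures was not tested for these genes, since both comparisons had a part in choosing them. With 3 libraries per group, no single library was tested for standing apart.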

How the results depend on the processing

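None of the values of the 8 genes, and no call of another named gene, changed direction under the alternatives run. Stimulation in Batf3 cells gave 2 rises and 6 falls among the 8 genes in every alternative, and in control cells 1 rise and 6 to 7 falls, the extra one being Rasgrf1. No pairing by the replicate numbers that the groups share was seen. Deviations of same-numbered libraries correlated between -0.126 and 0.053 over 18 pairs. In 13 of 36 comparisons, each with the 3 libraries of another group, a library correlated best with its own number. So few libraries cannot show that the numbers carry no pairing. With a replicate block, 2502 genes rose and 3557 fell with Batf3 in non-stimulated cells, and 2272 rose and 2238 fell in stimulated cells, against 2560 and 3615, and 2331 and 2300, without it. With library sizes alone, falls with Batf3 in non-stimulated cells numbered 14 among related genes (24 with TMM), 7 among neighbours (14) and 2397 over all genes (3615). In stimulated cells, rises numbered 5 among neighbours (8) without the filter and with DESeq2, and 12 among related genes (20) with DESeq2, and the cause was not tested. Within 100 kb, neighbours gave 4 rises and 4 falls in non-stimulated and 3 rises and 2 falls in stimulated cells. Within 500 kb they gave 15 rises and 24 falls in non-stimulated and 16 falls in stimulated cells, since other genes are counted. Rises within 500 kb in stimulated cells are not given here, so those falls alone do not show a direction. Leaving out 1 library at a time, rises in stimulated cells ran from 13 to 20 among related genes and from 5 to 8 among neighbours. The Batf3 difference of Rasgrf1 in non-stimulated cells ran from 3.97 to 4.48 over the alternatives. Depth limits Rasgrf1, Gpld1 and Grhl3 in stimulated cells and Rasgrf1 and Trpm6 in control non-stimulated cells, where libraries held under 10 counts.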
